A study of Mus musculus with 24 samples.

Results

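The 10 genes described here, Onecut1, Onecut2, Onecut3, Prox1, Lhx1, Tfap2a, Tfap2b, Tfap2c, Gad1 and Slc6a9, are genes of amacrine and horizontal cells, the inhibitory interneurons of the retina. They were chosen by symbol, and all 10 were found among 21887 protein-coding genes of the mouse assembly GRCm38.p6. The window of a gene was the gene with 5 kb added on either side, and any peak that shared at least 1 bp with the window was counted for that gene. SOX8 and SOX9, related transcription factors, were mapped with CUT&RUN, in which an antibody guides a nuclease to the DNA around a bound protein and the released fragments are sequenced. Retinas of wild-type mice were taken on postnatal days 2 and 17 (P2 and P17), and each reaction held 600000 nuclei. The 24 libraries comprise, per age, 4 for SOX8 (2 antibodies), 2 for SOX9, 2 for the histone mark H3K4me3, 2 for the mark H3K27ac and 2 for a nonspecific IgG.

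Horizontal cells sit at the photoreceptor synapse and feed signals back to photoreceptors, while amacrine cells shape the signals that pass from bipolar cells to ganglion cells. Both types arise from progenitors that express SOX9, which later stays on in Müller glia, the principal retinal glia. Nucleosomes at active promoters carry H3K4me3, and those at active enhancers and promoters carry H3K27ac. The Onecut genes, Prox1 and Lhx1 encode transcription factors of horizontal cells, and Tfap2a, Tfap2b and Tfap2c encode AP-2 transcription factors of amacrine and, for Tfap2a and Tfap2b, also horizontal cells. Gad1 encodes an enzyme that makes the transmitter GABA, and Slc6a9 encodes GlyT1, the glycine transporter of glycinergic amacrine cells.

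The files used were 8 peak lists, 1 for each age and target, with the positions of 349901 peaks, no height and no replicate. No replicate error, interval or test could therefore be given, and each value below is a count, width or position in 1 list. Lists ranged from 2400 peaks (P17 SOX8) to 287845 (P2 H3K27ac), sequencing depth is unknown, and IgG libraries were not analysed here. The SOX8 lists are labelled combined, unlike the others, and how the SOX8 antibodies were joined in them is unknown. Counts for SOX8 and SOX9 therefore come from lists that may have been made differently. The label of the tissue was checked on marker genes. Of 8 genes each, H3K4me3 lay at 6 rod genes at P2 and 8 at P17, at 3 and 5 bipolar cell genes, at 8 and 3 progenitor genes, at 7 and 4 Müller glia genes and at 2 and 0 retinal ganglion cell genes. The ganglion cell markers were thus mostly without H3K4me3 at both ages, and fewer Müller glia markers had it at P17 than at P2. Of all protein-coding genes, 49.3% had an H3K4me3 peak at P2 and 50.9% at P17. The bipolar cell counts, and the progenitor and Müller glia counts at P17, were near these shares. Since whole retina was used, fewer nuclei of a type and less signal per nucleus cannot be told apart.

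RefSeq promoter windows of GRCm38.p6, 300 bases each, were at hand for 7 of the 10 genes and hold 11 annotated starts. Shown are those on which the SOX results turn: the 3 starts of Slc6a9, of which the first and second lay under SOX9 peaks at P2 and P17, and the 2 starts of Prox1, under a SOX9 peak at P2. The windows of Gad1, Tfap2b and Lhx1, which lay under no SOX peak, are shown beside them. Each runs 5′ to 3′ on the strand of its gene, with 250 bases before the start site and 50 from it on, and capitals mark the SOX core letters ACAAT and the related letters ACAAAG on either strand, where the lower strand reads ATTGT and CTTTGT. The windows are chr4:117835008-117835307, chr4:117849100-117849399 and chr4:117855297-117855596 (plus strand) for Slc6a9, chr1:190170778-190171077 and chr1:190169466-190169765 (minus strand) for Prox1, chr2:70561879-70562178 (plus strand) for Gad1, chr1:19211804-19212103 (plus strand) for Tfap2b and chr11:84525485-84525784 (minus strand) for Lhx1.
Slc6a9, first start: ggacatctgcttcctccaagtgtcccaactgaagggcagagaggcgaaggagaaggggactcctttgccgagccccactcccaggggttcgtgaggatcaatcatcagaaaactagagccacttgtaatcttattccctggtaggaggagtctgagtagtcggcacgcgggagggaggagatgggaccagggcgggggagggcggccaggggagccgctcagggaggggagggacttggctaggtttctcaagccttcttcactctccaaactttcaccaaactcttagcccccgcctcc
Slc6a9, second start: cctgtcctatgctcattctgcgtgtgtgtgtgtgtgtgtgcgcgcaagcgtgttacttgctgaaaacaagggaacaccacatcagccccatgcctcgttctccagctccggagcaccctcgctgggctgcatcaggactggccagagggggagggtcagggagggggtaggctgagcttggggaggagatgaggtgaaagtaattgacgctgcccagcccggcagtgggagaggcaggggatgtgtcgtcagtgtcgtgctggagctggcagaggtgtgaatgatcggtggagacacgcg
Slc6a9, last start: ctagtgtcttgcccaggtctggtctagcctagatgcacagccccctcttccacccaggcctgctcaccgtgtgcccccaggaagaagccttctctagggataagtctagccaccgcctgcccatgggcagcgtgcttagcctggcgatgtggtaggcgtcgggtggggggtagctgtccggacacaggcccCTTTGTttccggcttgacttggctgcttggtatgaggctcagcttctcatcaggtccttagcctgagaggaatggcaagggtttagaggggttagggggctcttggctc
Prox1, upstream start: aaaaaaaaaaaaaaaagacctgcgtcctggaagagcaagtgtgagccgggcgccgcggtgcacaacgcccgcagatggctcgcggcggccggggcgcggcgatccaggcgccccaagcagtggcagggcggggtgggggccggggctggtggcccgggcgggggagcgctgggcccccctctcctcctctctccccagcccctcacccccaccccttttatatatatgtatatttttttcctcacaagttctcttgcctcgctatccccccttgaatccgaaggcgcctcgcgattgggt
Prox1, downstream start: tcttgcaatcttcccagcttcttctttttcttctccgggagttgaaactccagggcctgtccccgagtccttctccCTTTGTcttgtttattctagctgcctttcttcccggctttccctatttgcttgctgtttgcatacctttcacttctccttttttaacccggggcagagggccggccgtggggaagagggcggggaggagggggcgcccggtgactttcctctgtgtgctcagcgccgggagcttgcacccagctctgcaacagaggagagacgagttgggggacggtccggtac
Gad1: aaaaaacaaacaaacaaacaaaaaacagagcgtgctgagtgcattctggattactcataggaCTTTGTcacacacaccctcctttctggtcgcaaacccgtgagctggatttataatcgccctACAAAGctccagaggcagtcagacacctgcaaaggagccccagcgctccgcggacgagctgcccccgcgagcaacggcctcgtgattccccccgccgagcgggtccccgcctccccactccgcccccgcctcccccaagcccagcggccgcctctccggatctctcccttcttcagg
Tfap2b: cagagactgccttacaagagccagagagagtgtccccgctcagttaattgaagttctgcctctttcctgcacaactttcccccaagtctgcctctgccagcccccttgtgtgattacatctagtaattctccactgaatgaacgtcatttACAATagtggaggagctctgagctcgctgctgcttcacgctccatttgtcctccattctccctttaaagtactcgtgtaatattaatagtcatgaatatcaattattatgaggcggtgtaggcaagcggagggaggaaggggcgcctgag
Lhx1: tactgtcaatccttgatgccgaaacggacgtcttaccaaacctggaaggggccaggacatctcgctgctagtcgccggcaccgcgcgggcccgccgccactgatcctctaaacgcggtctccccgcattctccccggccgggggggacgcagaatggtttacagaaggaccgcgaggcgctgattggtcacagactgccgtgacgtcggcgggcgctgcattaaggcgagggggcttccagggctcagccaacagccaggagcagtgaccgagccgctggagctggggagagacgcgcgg

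The letters ACAAT were found in 1 of the 11 windows, that of Tfap2b, at base 151. Over 21263 windows of protein-coding genes 27.7% held them. None of the 4 windows under a SOX peak held ACAAT, and among all windows under a P2 SOX9 peak the share was 16.7%. The letters ACAAAG, which 16.8% of all windows held, were found in 3 windows, at bases 63 and 124 of Gad1, base 77 of the downstream start of Prox1 and base 192 of the last start of Slc6a9. These are matches of letters in a short window and a description only. The 4 windows under SOX peaks held 10 and 14 CpG dinucleotides (Slc6a9) and 25 and 14 (Prox1, upstream and downstream start). The median was 13 over all windows and 25 over windows under P2 SOX9 peaks. The windows richest in CpG, with 38 at Onecut1 and 31 at Lhx1, lay under no SOX peak.

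At P2, SOX9 peaks lay at 6 of the 10 genes and SOX8 peaks at none of them. The 6 genes were Onecut2, Prox1, Lhx1, Tfap2a, Gad1 and Slc6a9, with 1 peak each except Slc6a9, which had 2. At P17, Slc6a9 was the only one of the 10 with a SOX9 or SOX8 peak, with 4 SOX9 and 2 SOX8 peaks. Onecut1, Onecut3, Tfap2b and Tfap2c had no peak in any SOX list, as did 66.1% of all protein-coding genes. With 5476 peaks the P2 SOX9 list was longer than the P17 one, with 2855, so the longer list is also the one with more of these genes.

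**Figure D1:**
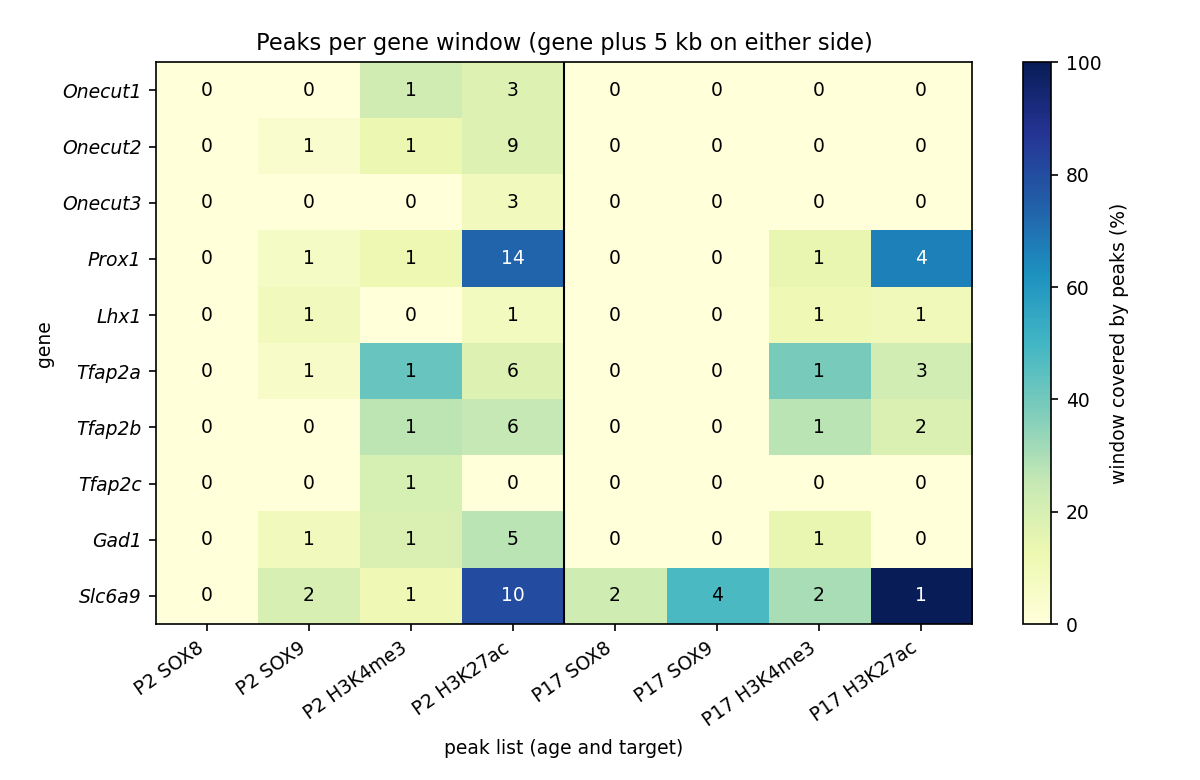
Number of peaks (digits) in the window of each of the 10 genes (rows) in each peak list (columns), with the colour giving the percentage of the window covered by peaks. Slc6a9 is the only gene with SOX peaks at P17, and P17 H3K27ac covers 100% of its window.

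Read against all protein-coding genes, the 6 of 10 genes with a P2 SOX9 peak stood beside 27.7%, and the 0 of 10 for P2 SOX8 beside 15.1%. At P17, 1 of 10 genes stood beside 15.7% for SOX9 and beside 13.0% for SOX8. Among genes with an H3K4me3 peak of the same age in the window, fewer of the 10 can be compared, since Onecut3 and Lhx1 had no such peak at P2 and 4 of the 10 had none at P17. Of the 8 genes with P2 H3K4me3, 5 had a P2 SOX9 peak, beside 53.3% of all such genes, and 0 a P2 SOX8 peak, beside 29.8%. Of the 6 genes with P17 H3K4me3, 1 had a P17 SOX9 peak, beside 27.4%, and 1 a P17 SOX8 peak, beside 23.1%. Over whole windows the P2 SOX9 count was above the share of all genes, and among genes with H3K4me3 it was nearer to its background. Within 1 kb of a start, 2 of the 10 genes had a P2 SOX9 peak, near the 22.6% of all genes. The P17 counts over the 10 genes were near the background of each list.

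**Figure D2:**
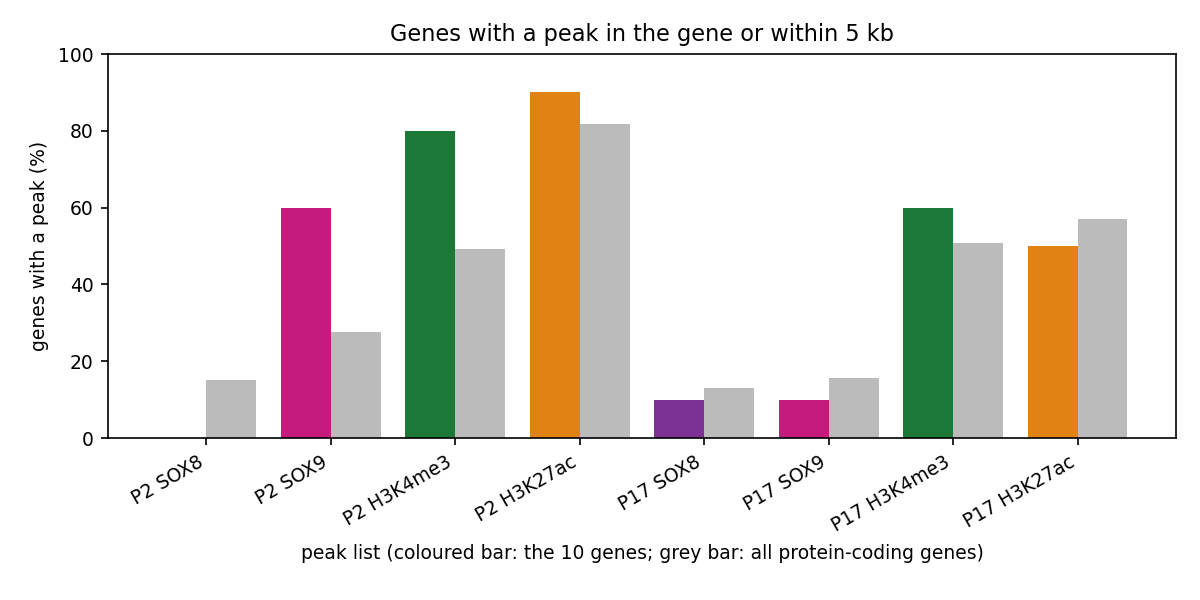
Percentage of the 10 genes (coloured bars) and of all protein-coding genes (grey bars) with a peak in the gene or within 5 kb, for each of the 8 lists; each bar is 1 list with no replicate error. The bar of the 10 genes is at 0 for P2 SOX8 and at 60% against 27.7% for P2 SOX9. The P17 SOX bars are at 10%, below their grey bars.

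Of the 6 genes with a P2 SOX9 peak, Prox1 and Slc6a9 had one within 1 kb of an annotated start. Over all genes with a P2 SOX9 peak, 81.5% had one that close. Of all protein-coding genes, 22.6% had a P2 SOX9 peak within 1 kb of a start, 12.1% one for P2 SOX8, 10.8% one for P17 SOX9 and 8.90% one for P17 SOX8. In the other 4 genes the SOX9 peak lay inside the gene (Onecut2, Tfap2a and Gad1) or in the flank (Lhx1). Of the 7 P2 SOX9 peaks, 5 overlapped P2 H3K4me3 and 7 overlapped P2 H3K27ac, against 79.8% and 99.4% of the whole list. None of the 7 overlapped a P2 SOX8 peak, against 45.5% of the list. Their widths ran from 1847 to 5208 bp with a median of 3410 bp, and the median of the list was 2668.5 bp.

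Among the horizontal cell factors, the Onecut genes differed from each other at P2. Onecut1 (chromosome 9, 74861921 to 74889648) had no SOX peak, and its nearest P2 SOX9 peak lay 62504 bp away. It did carry a P2 H3K4me3 peak of 8376 bp, wider than 98.1% of that list, which spanned its start and that of Gm33562, a long noncoding RNA gene, and 3 P2 H3K27ac peaks, the widest of 4262 bp also across the start. Onecut2 (chromosome 18, 64340032 to 64398488) had a P2 SOX9 peak of 2710 bp at 64342385 to 64345094, inside the gene and with its centre 3707 bp from the lower gene end. That peak lay entirely under a P2 H3K4me3 peak of 8669 bp, and P2 H3K27ac covered 27% of it. Onecut3 (chromosome 10, 80494906 to 80517266) had neither SOX nor H3K4me3 peaks, and held 3 P2 H3K27ac peaks of 914 to 1117 bp toward its upper end.

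At P17 none of the Onecut genes had a peak in any of the 4 lists. The nearest P17 H3K4me3 peak lay 61969 bp from Onecut1, 72160 bp from Onecut2 and 41871 bp from Onecut3. The marks of Onecut1 and Onecut2 at P2 were thus absent from the P17 lists, as was the SOX9 peak of Onecut2.

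Prox1, a factor of horizontal cells that other retinal interneurons also express, had both marks at both ages (chromosome 1, 190118035 to 190170827). Its P2 SOX9 peak of 3930 bp, at 190167837 to 190171766, was wider than 87.2% of the list and covered both annotated starts. It lay entirely under P2 H3K4me3 (7399 bp) and was covered to 96.3% by P2 H3K27ac. At P17 no SOX list had a peak there, and the nearest P17 SOX9 peak lay 1224355 bp away. Yet 100% of the P2 SOX9 site was under a P17 H3K4me3 peak of 9015 bp, and 100% under a P17 H3K27ac peak of 14199 bp. H3K27ac covered 73.4% of the window at P2, in 14 peaks, and 66.7% at P17, in 4 peaks that included one of 18036 bp. Prox1os, a long noncoding RNA gene, overlaps the 5′ end of Prox1 in the annotation, and the SOX9 peak lay over it too.

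Lhx1, needed for horizontal cells to reach their layer, had no peak of any list inside the gene (chromosome 11, 84517975 to 84525534). The P2 SOX9 peak counted for it, of 1847 bp at 84512771 to 84514617, lay 3358 bp beyond its 3′ end and over the start of Aatf, a gene of apoptosis and transcription, at 84513501. The P2 H3K27ac peak of 1407 bp, the P17 H3K4me3 peak of 3041 bp and the P17 H3K27ac peak of 2540 bp in the window lay over the same Aatf start. With a peak counted only for the gene nearest to its centre, Lhx1 had no SOX9 peak, and 5 of the 10 genes had one at P2, beside 21.7% of all genes counted in that way.

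**Figure D3:**
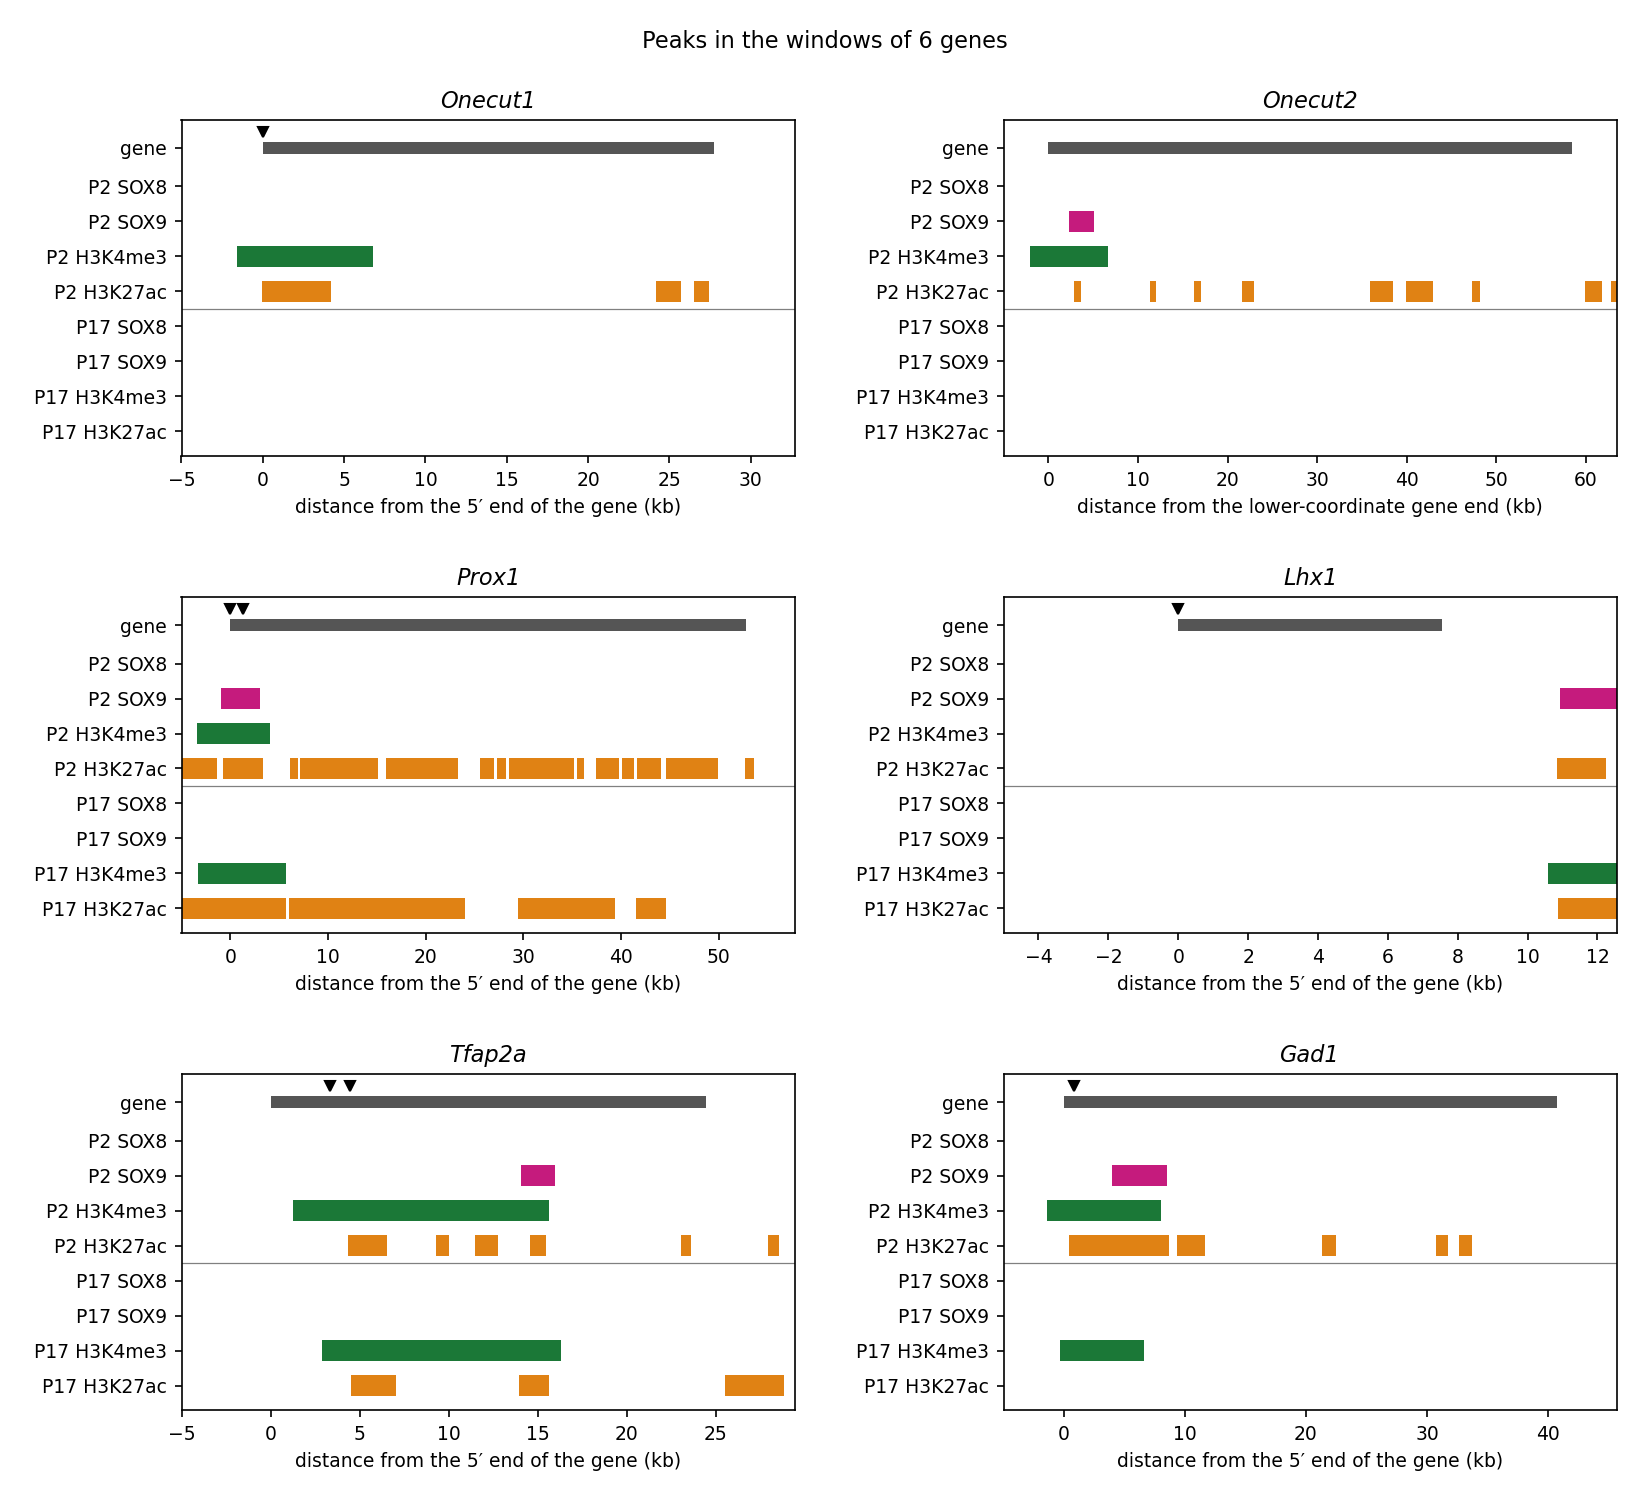
Peaks of the 8 lists (coloured bars, P2 above the grey line and P17 below it) in the windows of 6 genes, along the distance in kb from the 5′ end of the gene (Onecut2: from its lower-coordinate end), with the gene as a dark bar and annotated starts as triangles; bars are cut at the window. SOX9 bars (pink) appear at P2 only, over the starts of Prox1, inside Onecut2, downstream of the start in Tfap2a and Gad1, and beyond the 3′ end of Lhx1.

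The AP-2 genes had wide H3K4me3 peaks and, among them, 1 SOX peak. Tfap2a (chromosome 13, 40713802 to 40738238) had a P2 SOX9 peak of 1934 bp at 40722273 to 40724206, wider than 14.7% of the list, with its centre 10556 bp downstream of the nearest annotated start. P2 H3K4me3 covered 83.6% of that peak and P2 H3K27ac 47.1%. At P17, without a SOX9 peak, the site was covered to 100% by H3K4me3 and to 82.1% by H3K27ac. The H3K4me3 peak of Tfap2a, 14417 bp at P2 and 13423 bp at P17, ranked 21 by width in the P2 list and 50 in the P17 list. Gm26688, a long noncoding RNA gene on the opposite strand, starts under it.

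Tfap2b (chromosome 1, 19208908 to 19238845) had no SOX peak at either age, and the nearest P2 SOX9 peak lay 1063154 bp away. Its H3K4me3 peak was 10750 bp at P2 and 10820 bp at P17, with 100% of the P2 peak under the P17 one. It had 6 H3K27ac peaks at P2 and 2 at P17, and the P17 peak at 19230562 to 19234400 overlapped no P2 H3K27ac peak. Tfap2c (chromosome 2, 172545678 to 172558622) had 1 peak in the 8 lists, a P2 H3K4me3 peak of 4664 bp inside the gene, and no H3K27ac peak at P2. Within this family, H3K4me3 was thus present at both ages in Tfap2a and Tfap2b and at P2 alone in Tfap2c.

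The transmitter genes differed most at P17. Gad1 (chromosome 2, 70561303 to 70602014) had a P2 SOX9 peak of 4626 bp at 70565230 to 70569855, wider than 93.3% of the list and centred 5413 bp downstream of its annotated start. P2 H3K27ac covered 100% of it, in a peak of 8232 bp that ran over the start, and P2 H3K4me3 covered 88.4%. At P17 Gad1 had an H3K4me3 peak of 6977 bp over its start, against 9405 bp at P2, which covered 58.4% of the earlier SOX9 site. It had no P17 H3K27ac peak, and the nearest lay 30252 bp away. Gad1os, a noncoding RNA gene on the opposite strand, starts under the H3K4me3 peaks.

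Slc6a9 (chromosome 4, 117835258 to 117869305) had SOX9 peaks at both ages. The peak over its first start was 3410 bp at P2 (117834375 to 117837784) and 3592 bp at P17 (117834178 to 117837769), and 99.6% of the P2 peak lay under the P17 one. A peak inside the gene, over its second start, was 5208 bp at P2 (117846530 to 117851737) and 7218 bp at P17 (117843879 to 117851096), with 87.7% of the P2 peak under the P17 one. The start peak lay under H3K4me3 at both ages, while the inner peak overlapped no H3K4me3 peak at either age and was covered to 100% by H3K27ac at P2. The start at 117855547 lay under H3K27ac at both ages and under no SOX or H3K4me3 peak.

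At P17 Slc6a9 had further SOX peaks. A SOX9 peak of 6534 bp lay upstream of the gene, at 117826593 to 117833126, and P17 SOX8 had a peak of 2302 bp at the first start, wholly inside the SOX9 peak there. SOX8 and SOX9 peaks of 7526 and 7348 bp spanned the 3′ end and also covered the start of the neighbouring gene Ccdc24 at 117872470, together with a P17 H3K4me3 peak of 8805 bp. All of them also reached past the lower-coordinate end of B4galt2 (117873000 to 117883519). Which of these genes the peaks belong to was not tested. The SOX9 peaks covered 19.6% of the window at P2 and 47.7% at P17. P17 H3K27ac covered all of it, in a single peak of 66496 bp (117809889 to 117876384) that ranked 131 by width among 29909 peaks. P2 H3K27ac covered 80.4%, in 10 peaks. Of the 4 P17 SOX9 peaks, 3 overlapped H3K4me3, 4 H3K27ac and 2 SOX8, against 66.5%, 84.3% and 47.5% of the list. P17 H3K4me3 covered only 2.45% of the upstream SOX9 peak. With an overlap of 50% of the shorter peak required, 2 of the 4 overlapped H3K4me3. Both P17 SOX8 peaks overlapped H3K4me3, H3K27ac and SOX9, against 69.7%, 84.0% and 59.0%.

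**Figure D4:**
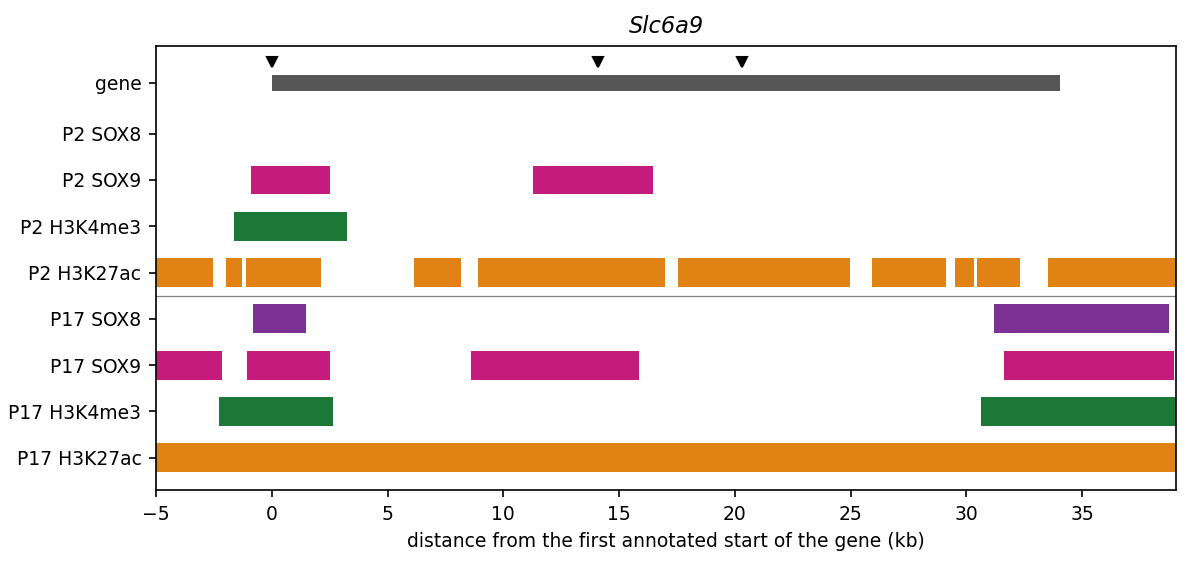
Peaks of the 8 lists (coloured bars) in the window of Slc6a9, along the distance in kb from its first annotated start; triangles are the 3 annotated starts, the dark bar is the gene, and bars are cut at the window. The SOX9 bars over the first and second starts are present at P2 and P17, and those beyond 30 kb and upstream of the gene at P17 only.

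Over the 10 genes, 5 of the 6 with a P2 SOX9 peak had none at P17, beside 58.9% of all genes with a P2 SOX9 peak. The sites of those 5 peaks carried different marks at P17. Those at Prox1, Lhx1 (over the Aatf start) and Tfap2a lay under both H3K4me3 and H3K27ac. That at Gad1 lay partly under H3K4me3 alone, and that at Onecut2 under neither. With the P2 SOX9 list limited to its 2855 widest peaks, 4 of the 10 genes had a P2 peak, beside 14.5% of all genes. Of the 10, 3 (Onecut2, Prox1 and Gad1) then had a P2 peak and none at P17, beside 6.90% of all genes. For SOX8, 1 gene (Slc6a9) had a P17 peak and none at P2, beside 4.94% of all genes.

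H3K4me3 peaks lay at 8 of the 10 genes at P2, beside 49.3% of all genes, and at 6 at P17, beside 50.9%. At a start, or at either gene end where no start is annotated, they lay in 7 genes at P2 (44.3% of all genes) and 5 at P17 (45.6%). The 7 include Onecut2, which has no annotated start here and was counted at its lower gene end. Whether that end holds its start is unknown here. Onecut1, Onecut2 and Tfap2c, or 3 of the 8, had a P2 peak and none at P17, beside 6.91% of all genes with a P2 peak. Lhx1, with the peak at Aatf, was the 1 gene with a P17 peak and no P2 peak, beside 5.0% of all genes. The P2 peaks at these genes were wide, with a median of 8522.5 bp against 3542 bp for the list, and each was wider than 79.3% of the list or more. At P17 the median was 8805 bp against 3703 bp, and the narrowest, of 3041 bp, was the one at Aatf.

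**Figure D5:**
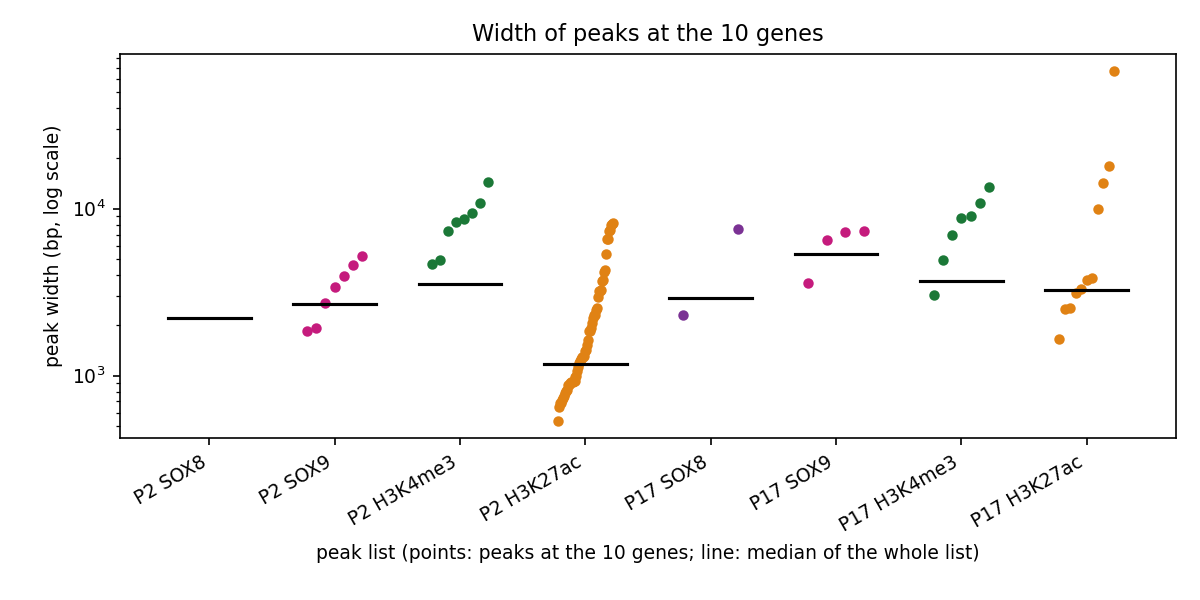
Width in bp, on a log scale, of every peak in the windows of the 10 genes (points, spread sideways in order of width) in each list, with the median of the whole list as a black line. All 8 P2 H3K4me3 points lie above their line, while the SOX9 and H3K27ac points lie on both sides of theirs.

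H3K27ac peaks lay at 9 of the 10 genes at P2 (57 peaks, beside 81.8% of all genes) and at 5 at P17 (11 peaks, beside 57.0%). Both counts include Lhx1, whose only H3K27ac peak at each age lay over the Aatf start. At a start, or at either gene end where no start is annotated, H3K27ac peaks lay in 7 genes at P2 (67.2% of all genes) and 3 at P17 (47.3%). The 7 include Onecut3, which has no annotated start here and was counted at its upper gene end. Whether that end holds its start is unknown here, so Onecut3 may not belong in the count. The 3 Onecut genes and Gad1, or 4 of the 9, had a P2 peak and none at P17, beside 30.7% of all genes with a P2 peak, and none of the 10 showed the opposite, beside 0.315% of all genes. These counts changed when the P2 list was cut to its widest peaks. Such a cut alters the number and the width of its peaks together (list median 1166 bp at P2 and 3268 bp at P17). The parts of list length and peak width cannot be told apart here. With that list limited to its widest 29909 peaks, the number of the P17 list, 4 genes had a P2 peak (Onecut1, Prox1, Gad1 and Slc6a9). The share of all genes with a P2 peak was then 40.5%. Onecut1 and Gad1, or 2 of the 10, then had a P2 peak alone, beside 7.28% of all genes, and Lhx1, Tfap2a and Tfap2b, or 3 of the 10, a P17 peak alone, beside 23.8% of all genes. The balance between the ages turned over all genes as well as over these 10.

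Across all 8 lists, Prox1 and Tfap2a had the same presence and absence of peaks, which 1689 genes other than Prox1 shared. The pattern of Slc6a9, with a peak in every list but P2 SOX8, was found in 250 other genes, and that of Onecut2 in 74. Tfap2c shared its pattern, a P2 H3K4me3 peak alone, with 6 other genes, and Onecut3 its pattern, a P2 H3K27ac peak alone, with 4208.

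Other genes of the same cell types were taken from lists of 22 amacrine and 7 horizontal cell genes. P2 SOX9 peaks lay at 9 of the 22 and 2 of the 7, P2 SOX8 peaks at 1 and 1, P17 SOX9 peaks at 5 and 2, and P17 SOX8 peaks at 1 and 1. The amacrine count for P2 SOX9 was above the 27.7% of all genes, and the horizontal cell count near it. The shares of all genes were 15.1% for P2 SOX8, 15.7% for P17 SOX9 and 13.0% for P17 SOX8. Both P17 SOX9 counts were only a little above the 15.7%, and with so few genes they are not read as a difference. The amacrine SOX8 counts were below theirs and the horizontal cell SOX8 counts near theirs. Genes with a peak in at least 2 SOX lists included Neurod1, Bhlhe22, Meis2 and Septin4. Neurod1, a proneural factor that photoreceptors also express, had SOX9 peaks of up to 4072 bp at P2 and 4649 bp at P17. Meis2, a transcription factor of amacrine cells, had SOX9 peaks of up to 3365 bp at P2 and of 4787 bp at P17. Bhlhe22, a factor of amacrine and bipolar cells, had a SOX8 peak of 2641 bp and a SOX9 peak of 2704 bp, both at P2. Septin4, a cytoskeletal gene, had peaks in all 4 SOX lists, the widest of 5197 bp for P17 SOX9.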

How the data were processed

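CUT&RUN libraries of 8 target and age groups gave 1 deposited peak list each, and the SOX8 list of each age is labelled combined. Per the submitters' processing notes, Bowtie2, SEACR and the build GRCm38 were used. Versions, thresholds, the use of IgG and the way replicates and SOX8 antibodies were combined are not given in the sources used here. The deposited score is 0 throughout, which leaves only positions and widths in the authors' lists. Start positions were converted to count from 1.

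Peaks were set against 21887 protein-coding genes on the main chromosomes (RefSeq, GRCm38.p6), with Python 3.11.15, numpy 2.4.6 and pandas 2.3.3. Gene starts came from the RefSeq promoter windows (17492 genes), and both gene ends stood in for the start elsewhere, as for Onecut2, Onecut3 and Tfap2c. P2 and P17 H3K4me3 peak centres lay within 1 kb of a start in 80.9% and 74.8% of cases, against 4.37% and 4.33% with starts moved by 10000 bp. Exons and introns were not used here. Interval counting was tested on simulated data.

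The genes and lists were chosen with earlier results of these data known. All 10 genes are named, with other amacrine and horizontal cell genes that had a peak in at least 2 SOX lists, of which 1 is not reported here. Alternatives were other windows, peak subsets, nearest-gene assignment, start distances and stricter overlap. No test was made, since no list names a replicate. IgG libraries were not analysed here.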

Additional observations from a re-analysis of the deposited data

How the results depend on the processing

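Of 86 alternative counts for 34 results, 75 stayed within 1.5 times the main count. Some of the 75 could not move, since a main count of 0, as for P2 SOX8, stays 0 under any stricter setting. A fall from 6 to 4 genes, as for P2 SOX9 with the wider 50% of its list, also counted as within 1.5 times. With genes plus 50 kb, 1 of the 10 genes had a P2 SOX8 peak (28.8% of all genes), 2 a P17 SOX8 peak (24.8%), 2 a P17 SOX9 peak (28.2%) and 8 a P17 H3K27ac peak (72.0%). With the widest peaks in equal number, 4 had a P2 H3K27ac peak (40.5%), 3 had a SOX9 peak at P2 and none at P17 (6.90%), and for H3K27ac 2 had a P2 peak alone (7.28%) and 3 a P17 peak alone (23.8%). Within 5 kb of a start, or of a gene end for Onecut2, 4 had a P2 SOX9 peak (24.6%). With gene bodies only, 0 had an H3K4me3 peak at P17 and none at P2 (5.10%), since the peak at Lhx1 lies in its flank. The letters ACAAAG, chosen after the data were seen, were in 3 windows, against 1 for ACAAT. No paired analysis was possible because there is 1 list per age and target and none names a replicate, so replicates could not be left out either. Library depth and peak thresholds are unknown, and their part in these counts was not tested.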

Other observations

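Outside the 5 kb windows, SOX peaks lay within 50 kb of 2 of the 10 genes. At Onecut3 they lay at Rexo1: a P2 SOX8 peak of 1305 bp and a P2 SOX9 peak of 2685 bp were 43696 and 43082 bp away, a P17 SOX9 peak of 6134 bp was 24732 bp away, and P17 SOX8 peaks of 312 and 3768 bp were 25312 and 28982 bp away. At Slc6a9, P17 SOX8 and SOX9 peaks of 3825 and 5504 bp lay over B4galt2 and Atp6v0b, 11415 and 10317 bp away, and P2 SOX9 and P17 SOX8 peaks of 1668 and 2450 bp lay over Ipo13.

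Marker lists of other retinal cells showed these counts of SOX9 peaks. Rod genes had 2 of 8 at P2 and 7 of 8 at P17, bipolar cell genes 2 of 8 and 3 of 8, Müller glia genes 5 of 8 and 1 of 8, progenitor genes 8 of 8 and 2 of 8, and ganglion cell genes 0 of 8 and 1 of 8. Beside them the 10 amacrine and horizontal cell genes had 6 and 1. The share over all protein-coding genes was 27.7% at P2 and 15.7% at P17. No difference between these lists was tested.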
